A study of Mus musculus with 3 samples.

Results

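The T cells described here belonged to the expanded clones of the inflamed sciatic nerve, namely clones with 6 or more cells in a library. A clone was the set of cells in 1 library with the same V gene, nucleotide CDR3 and J gene in both receptor chains, counted over cells with exactly 1 productive alpha chain (TRA) and 1 productive beta chain (TRB). The members were thus chosen by their measured size, and by this rule 73 of 2582 clones, holding 1060 of 4187 paired cells, were members. The cells came from CD45+ immune cells sorted by flow cytometry from sciatic nerves of neuropathic NOD.AireGW/+ mice, which are autoimmune-prone NOD mice heterozygous for GW, a partial loss-of-function allele of Aire. All 3 libraries were of this genotype and condition, with no treated or healthy group. Replicates 1 and 2 were of 1 mouse each and replicate 3 pooled 2 mice, whose cells could not be separated. The study used female mice, and age was not given in the sources used here. No gene expression was in the files analysed, so the members are known as T cells from their paired receptor chains, and whether they were CD4+ was not determined.

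A developing T cell assembles its receptor by joining V, D and J segments of the beta locus and V and J segments of the alpha locus, trimming the ends and adding bases that no segment encodes. The junction forms CDR3, the loop that lies over the antigen peptide, while the V gene fixes the loops that mainly touch the MHC molecule. Cells that descend from the same T cell therefore share the junction of both chains, and a clone grows when its cells divide after meeting antigen. The alpha locus can rearrange again, using V genes farther out and J genes nearer to the constant gene, and a failed or replaced rearrangement may persist in all descendants as a nonproductive passenger.

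Among the members, 3 clones of 2 mice had receptors of closely similar build, all joining TRBV19 to TRBJ1-4 and TRAV10 to TRAJ23. Their junctions are shown because they form the largest set of members alike in the genes of both chains, together with the 3 smaller clones of the same genes that lay outside the size rule. Capitals mark bases that matched no V, D or J segment of the GRCm38 assembly, which comes from another strain, and the group was singled out after its values were seen.
Replicate 1, 11 cells, TRB: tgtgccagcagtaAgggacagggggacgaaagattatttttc
Replicate 1, 11 cells, TRA: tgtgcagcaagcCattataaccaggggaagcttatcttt
Replicate 1, 7 cells, TRB: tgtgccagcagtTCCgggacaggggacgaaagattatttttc
Replicate 1, 7 cells, TRA: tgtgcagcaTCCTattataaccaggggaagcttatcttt
Replicate 2, 7 cells, TRB: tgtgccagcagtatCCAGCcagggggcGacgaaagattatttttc
Replicate 2, 7 cells, TRA: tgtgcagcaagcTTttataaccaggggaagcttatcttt
Replicate 2, 3 cells, TRB: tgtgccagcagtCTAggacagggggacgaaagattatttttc
Replicate 2, 3 cells, TRA: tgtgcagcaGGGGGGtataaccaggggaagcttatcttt
Replicate 2, 2 cells, TRB: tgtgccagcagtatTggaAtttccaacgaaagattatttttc
Replicate 2, 2 cells, TRA: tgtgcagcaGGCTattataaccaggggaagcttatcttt
Replicate 3, 1 cell, TRB: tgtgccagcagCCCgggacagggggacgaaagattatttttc
Replicate 3, 1 cell, TRA: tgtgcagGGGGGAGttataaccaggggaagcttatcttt

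In these 6 clones the TRBs encoded the same last 5 residues and the TRAs the same last 8, while the bases in capitals differed between clones. Those ends lay in bases that matched TRBJ1-4 and TRAJ23, the J genes that define the group, so their sharing was fixed in advance. Of all 9 clones with TRAV10 and TRAJ23, 6 used TRBV19, and all 6 of those used TRBJ1-4, which 8.21% of all clones used and 12.1% of all TRBV19 clones. In 3 of the 6 the TRB encoded the same last 9 residues, an end that was in 3 of all 2582 clones. The 6 clones came from all 3 libraries and held 31 cells. In the 3 members, the TRA of 13 residues differed between any of them at 1 residue, a histidine, tyrosine or phenylalanine just before the shared end. The alpha V genes were TRAV10N in the clone of 11 cells and TRAV10D in the others, near-identical copies that reads may not separate with certainty. On GRCm38 the segments lie at chr6:41178375-41179048 for TRBV19, chr6:41534811-41534861 for TRBJ1-4, chr14:52810934-52811496 for TRAV10D, chr14:53122114-53122610 for TRAV10N and chr14:54196081-54196140 for TRAJ23, all on the plus strand.

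Clones alike in both chains, that is with the same TRBV, TRBJ, TRAV subgroup and TRAJ, formed 4 of the 2628 pairs of member clones. Of 3146286 pairs among clones of 1 to 5 cells, 187 were alike, so the rate per 100000 pairs was 152 among members and 5.94 among the smaller clones. Between libraries alone, 3 of 1246 pairs of members were alike against 105 of 1857446 pairs of smaller clones. The count rests on few clones, since 3 of the 4 pairs came from the TRBV19 and TRAV10 group, and without replicate 1 it was 0. No test was made of this rate.

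The fourth pair was the same receptor by amino acid in 2 mice. It paired TRBV29 and TRBJ1-3 with TRAV7-3 and TRAJ32, in 7 cells of replicate 1 and 10 of replicate 2, and its nucleotides are shown because they separate the clones.
Replicate 1, TRB: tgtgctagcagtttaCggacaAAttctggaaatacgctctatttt
Replicate 2, TRB: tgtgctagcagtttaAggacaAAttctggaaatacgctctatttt
Replicate 1, TRA: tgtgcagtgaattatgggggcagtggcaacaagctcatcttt
Replicate 2, TRA: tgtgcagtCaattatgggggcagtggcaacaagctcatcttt
The clone of replicate 1 and that of replicate 2 differed at 1 base in each chain. No other member was found whole in a second library by the amino acids of both CDR3s. With this receptor counted in each library, that made 2 of 73 members (2.74%), against 22 of 2509 smaller clones (0.877%). The difference was not tested.

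Some members had near matches in another mouse. A clone of 7 cells in replicate 1, with TRBV5 and TRBJ2-3 and with TRAV9-4 and TRAJ28, had a counterpart of 1 cell in replicate 3 with the same TRB amino acids from other nucleotides, the same 4 genes and a TRA that differed at 1 residue. A clone of 9 cells in replicate 2 with TRBV5, TRAV14-1 and TRAJ23 shared its TRB amino acids and TRAJ23 with a 1-cell clone of replicate 1 that used TRAV3-3. Another 1-cell clone of replicate 1 had the same TRB amino acids with other V genes and another alpha J gene, TRBV2, TRAV8D-2 and TRAJ44. By amino acid, the TRB CDR3 of 5 of the 73 members (6.85%) was seen in another library, against 83 of 2509 smaller clones (3.31%), and the TRA CDR3 of 9 members (12.3%) against 270 (10.8%). Of the 5 members with a shared TRB, 2 were the TRBV29 receptor found in replicates 1 and 2, counted in each. The TRB of the clone of 38 cells, of TRBV12-2 and TRAV6-2, was seen only with other V genes, TRBV12-1 and TRAV7-3. These counts are small and were not tested.

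A looser likeness linked the largest clone of replicate 2 to a member of replicate 3, also chosen after the values were seen. Both joined TRBV5 to TRBJ2-1 and used TRAV3-3. Their TRBs both encoded 15 residues and differed at 1 of them.
Replicate 2, 49 cells, TRB: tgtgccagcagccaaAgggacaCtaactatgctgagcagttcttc
Replicate 3, 6 cells, TRB: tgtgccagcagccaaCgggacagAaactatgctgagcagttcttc
Replicate 2, 49 cells, TRA: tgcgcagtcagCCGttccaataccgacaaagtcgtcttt
Replicate 3, 6 cells, TRA: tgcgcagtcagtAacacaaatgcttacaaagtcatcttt
Their alpha J genes differed, TRAJ34 in the clone of 49 cells and TRAJ30 in the clone of 6. The 3 members that joined TRAV6N-7 to TRAJ53, each with a TRA of 14 residues, paired it with TRBV13-1, TRBV13-3 and TRBV10, so a similar alpha chain occurred with different beta chains.

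Clone sizes, which the rule itself used, are given as a description. Replicate 1 had 23 member clones with 468 cells, replicate 2 had 48 with 579 cells and replicate 3 had 2 with 13 cells. As a share of paired cells this was 29.2% in replicate 1, with an exact Clopper-Pearson 95% interval from 27.0% to 31.5%. It was 26.1% in replicate 2, from 24.3% to 28.0%, and 3.52% in replicate 3, from 1.89% to 5.95%. The intervals cover counting error only. The shares of replicates 1 and 2 were close, and that of replicate 3, the pool of 2 mice with 369 paired cells, was far lower.

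The libraries reached their shares in different ways. In replicate 1 a single clone of 249 cells, with TRBV19 and TRAV12D-2, was 53.2% of the member cells, and the next had 21 cells. In replicate 2 the largest clone had 49 cells, or 8.46% of member cells, and was followed by clones of 38, 34, 28, 27 and 22 cells. In replicate 3 the clones had 7 and 6 cells. The median member clone had 7 cells in replicate 1 and 8 cells in replicate 2. Clones of more than 20 cells numbered 8 in all and held 468 cells, and the other 65 members held 592 cells.

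**Figure D1:**
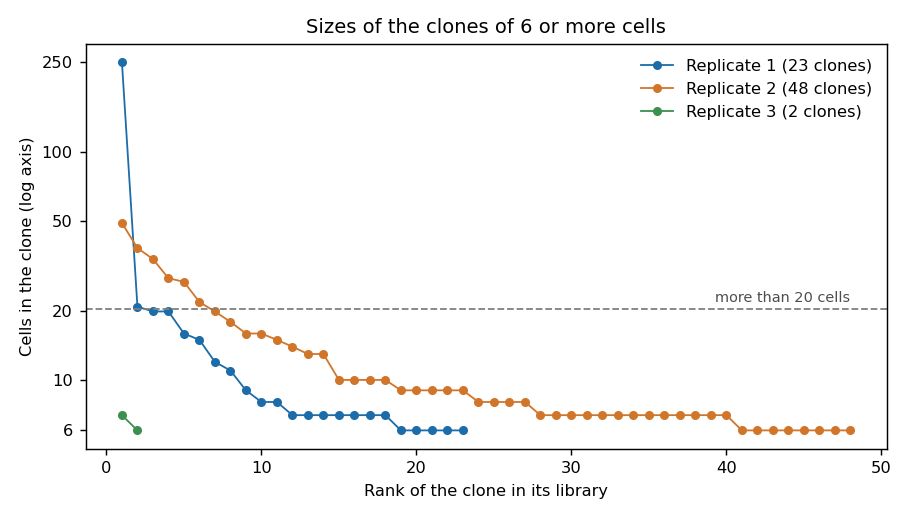
Cells in each member clone on a log axis against the rank of the clone in its library, with 1 line per replicate and 1 point per clone. Replicate 1 drops from 249 cells to 21 at its second clone, while replicate 2 falls gradually from 49 cells to 6, and replicate 3 has 2 clones.

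The sequences of the clones of more than 20 cells not yet shown are given as the largest expansions of the data.
Replicate 1, 249 cells, TRBV19 and TRBJ2-4: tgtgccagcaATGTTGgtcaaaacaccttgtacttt
Replicate 1, 249 cells, TRAV12D-2 and TRAJ16: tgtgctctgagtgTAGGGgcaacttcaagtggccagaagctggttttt
Replicate 1, 21 cells, TRBV3 and TRBJ2-5: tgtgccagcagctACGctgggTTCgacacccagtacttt
Replicate 1, 21 cells, TRAV7D-2 and TRAJ47: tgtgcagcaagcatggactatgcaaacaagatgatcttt
Replicate 2, 38 cells, TRBV12-2 and TRBJ2-7: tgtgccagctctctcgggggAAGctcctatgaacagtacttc
Replicate 2, 38 cells, TRAV6-2 and TRAJ45: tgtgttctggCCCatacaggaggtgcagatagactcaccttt
Replicate 2, 34 cells, TRBV1 and TRBJ1-1: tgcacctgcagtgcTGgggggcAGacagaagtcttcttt
Replicate 2, 34 cells, TRAV5-4 and TRAJ48: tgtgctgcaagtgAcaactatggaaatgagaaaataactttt
Replicate 2, 28 cells, TRBV20 and TRBJ2-7: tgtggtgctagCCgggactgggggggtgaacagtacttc
Replicate 2, 28 cells, TRAV14D-1 and TRAJ23: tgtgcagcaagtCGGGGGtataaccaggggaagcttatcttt
Replicate 2, 27 cells, TRBV5 and TRBJ2-7: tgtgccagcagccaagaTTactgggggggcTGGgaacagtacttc
Replicate 2, 27 cells, TRAV6-6 and TRAJ39: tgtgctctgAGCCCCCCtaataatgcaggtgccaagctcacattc
Replicate 2, 22 cells, TRBV2 and TRBJ1-6: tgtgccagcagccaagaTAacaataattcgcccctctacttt
Replicate 2, 22 cells, TRAV12D-2 and TRAJ26: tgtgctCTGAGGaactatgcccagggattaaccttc

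The TRB of the clone of 249 cells had no stretch matching a D segment, and its 6 added bases join TRBV19 to TRBJ2-4. Its CDR3 of 12 residues was shorter than the member mean of 14.1 ± 1.32 residues (SD, n = 73 clones). The TRA of the clone of 21 cells had no base outside its V and J segments. In the TRA of the clone of 22 cells, the capitals CTGAG may be bases of TRAV12D-2 rather than added ones. The TRA of the clone of 249 cells has the same bases in lower case, since a mismatch was bridged only where 5 matching bases followed.

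At the limit of the rule, 14 clones had 6 cells and 22 clones had 5 cells. The mean TRB CDR3 was 13.9 ± 1.21 residues (SD) in clones of 6 cells and 13.4 ± 1.53 in clones of 5. The mean TRA CDR3 was 14.3 ± 0.994 and 13.6 ± 1.10 residues, and TRBJ2 genes were in 78.6% and 63.6%. The mean TRAJ number was 36.9 ± 15.0 and 35.3 ± 14.4.

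Depth differed between libraries, with 2374, 3555 and 705 cells holding a productive TRA or TRB and a median of 6, 5 and 3 UMIs, or counted transcript molecules, per contig. Cell barcodes shared between libraries numbered 10, of which 3 were of a member cell in either library and 0 had the same rearrangement in both. Each library came from other mice, so differences between mice and between libraries cannot be told apart.

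The members used a broad set of genes, 18 of the 22 TRBV genes seen in all clones, 34 of 68 TRAV genes and 31 of 42 TRAJ genes, each clone counted once. The TRBV count includes TRBV12-2+TRBV13-2, a joint name in the deposited annotation that was kept as given. TRBV19 was the commonest beta V gene with 11 members, 3 in replicate 1, 7 in replicate 2 and 1 in replicate 3. It was in 15.1% of members and 8.49% of the clones of 1 to 5 cells, and within the libraries 13.0% against 8.16% in replicate 1 and 14.6% against 8.70% in replicate 2. Its log2 fold change was 0.82 ± 0.46 (SE, adjusted p = 0.809 by edgeR's quasi-likelihood test over 3 libraries), so the difference did not pass the test. Across all 125 V and J genes with 10 or more clones, 0 passed an adjusted p of 0.05, which is 0% of the genes tested. With DESeq2, an alternative count test, 0 passed as well. At an unadjusted p under 0.05 there were 3 genes in edgeR, 2 higher and 1 lower in members, and 1 in DESeq2.

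The next beta V genes among members were TRBV5 with 9 clones (12.3% against 10.5% of smaller clones) and TRBV13-3 with 8 (11% against 7.49%). TRBV1 had 6 (8.22% against 7.25%), as had TRBV13-1 (8.22% against 8.77%), and TRBV16 also had 6 but follows in the alphabetical order used for ties. Adjusted p-values for the 4 genes TRBV5, TRBV13-3, TRBV1 and TRBV13-1 lay at 0.953, 0.827, 0.953 and 0.953 by edgeR. Replicates 1 and 2 pointed opposite ways for TRBV5, TRBV1 and TRBV13-1. TRBV5 was in 17.4% of members against 12.6% of smaller clones in replicate 1 and in 8.33% against 9.63% in replicate 2.

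Among beta J genes, which encode the end of CDR3, TRBJ2-7 led with 15 members (20.5% against 20.1%). TRBJ1-4, the J gene of the TRBV19 and TRAV10 group, had 9 (12.3% against 8.09%). It was higher in members of replicate 1 (21.7% against 9.26%) and lower in those of replicate 2 (6.25% against 7.45%). TRBJ2-1 had 9 (12.3% against 11.5%), TRBJ1-1 had 7 (9.59% against 10.7%) and TRBJ2-4 had 6 (8.22% against 6.74%). TRBJ2-7 and TRBJ2-4 also pointed opposite ways in replicates 1 and 2, and TRBJ2-1 and TRBJ1-1 were lower in members of both. None of the 5 passed the edgeR test, with adjusted p from 0.815 to 0.983. The constant gene came from the cluster of the J gene, TRBC1 with TRBJ1 and TRBC2 with TRBJ2, in 73 of 73 members. The same held in 2490 smaller clones, and in 0 of them did the clusters differ.

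Among alpha V genes, TRAV3-3, TRAV12D-2 and TRAV6N-7 each had 5 members. TRAV3-3 was in 6.85% of members and 2.19% of smaller clones, with 1, 3 and 1 members in replicates 1, 2 and 3, and its share was higher in members of every library. Its log2 fold change of 1.75 ± 0.72 (SE) did not pass after adjustment (edgeR, unadjusted p = 0.0266, adjusted p = 0.809). TRAV12D-2 was in 6.85% against 3.59%, TRAV6N-7 in 6.85% against 5.78%, TRAV5-4 in 5.48% against 6.06% and TRAV10D in 4.11% against 2.95%, and TRAV5-4 pointed opposite ways in replicates 1 and 2. By subgroup, which joins the duplicated copies of a V gene, TRAV6 had 11 members (15.1% against 15.6% of smaller clones) and TRAV7 had 10 (13.7% against 11%). TRAV3, the subgroup of TRAV3-3, followed with 7 (9.59% against 3.59%). The subgroup shares were not tested.

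The smallest p in the edgeR test belonged to a gene no member used, named here after its values were seen. TRAV9-1 was in 0 of 73 members, a count that allows up to 4.11%, and in 146 of the smaller clones (5.82%), at 6.28%, 5.82% and 4.46% in replicates 1, 2 and 3. The unadjusted p was 0.00399 and the adjusted p 0.499, which does not pass.

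Among alpha J genes, TRAJ23 led with 6 members (8.22% against 5.38% of smaller clones), 3 of them in the TRBV19 and TRAV10 group. TRAJ32 had 5 (6.85% against 2.99%), including the receptor found in 2 mice, and TRAJ48 had 5 (6.85% against 4.18%). TRAJ15 and TRAJ18 had 4 each (5.48% against 3.47% and 2.83%), and those with TRAJ15 were all in replicate 2. Adjusted p-values of these 5 lay between 0.809 and 0.843 by edgeR.

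**Figure D2:**
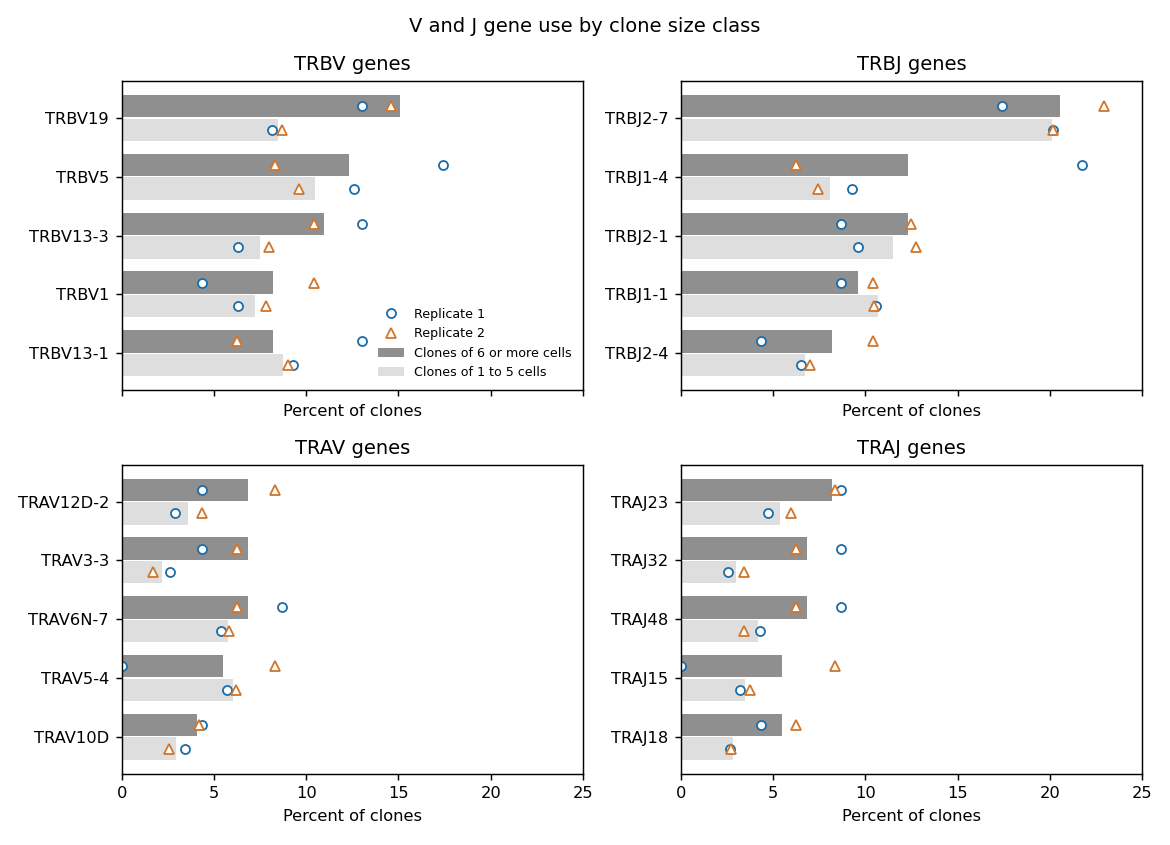
Percent of clones that use each gene, for the 5 genes with most members of each kind, in clones of 6 or more cells (dark bars) and of 1 to 5 cells (light bars) over all 3 replicates. Circles are replicate 1 and triangles replicate 2, and replicate 3, with 2 members, is in the bars only. TRBV19 is at 15.1% against 8.49%, and the symbols of members scatter more widely than those of the smaller clones.

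Invariant receptors were not among the members. Of the 73, 0 joined TRAV11 or TRAV11D to TRAJ18, the alpha chain of iNKT cells, and 0 joined TRAV1 to TRAJ33, that of MAIT cells, which allows up to 4.11% for each. Of 2509 smaller clones 5 and 13 did, both shares below that limit, so the counts of 0 do not set members apart.

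Pairing of V genes was mostly unrepeated. Counting alpha V genes by subgroup, the 73 members used 63 different TRBV and TRAV pairs, and 57 of them occurred in 1 member only. TRBV13-1 with TRAV6 was in 4 members, TRBV19 with TRAV10 in 3 and TRBV5 with TRAV3 in 3, against 30, 17 and 11 of the 2509 smaller clones. TRBV16 with TRAV8, TRBV19 with TRAV13 and TRBV29 with TRAV7 were in 2 members each. The pairs seen more than once among members were 5.48% to 2.74% of members and 1.20% to 0.159% of smaller clones, and since they were picked for recurring among members these values are a description.

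**Figure D3:**
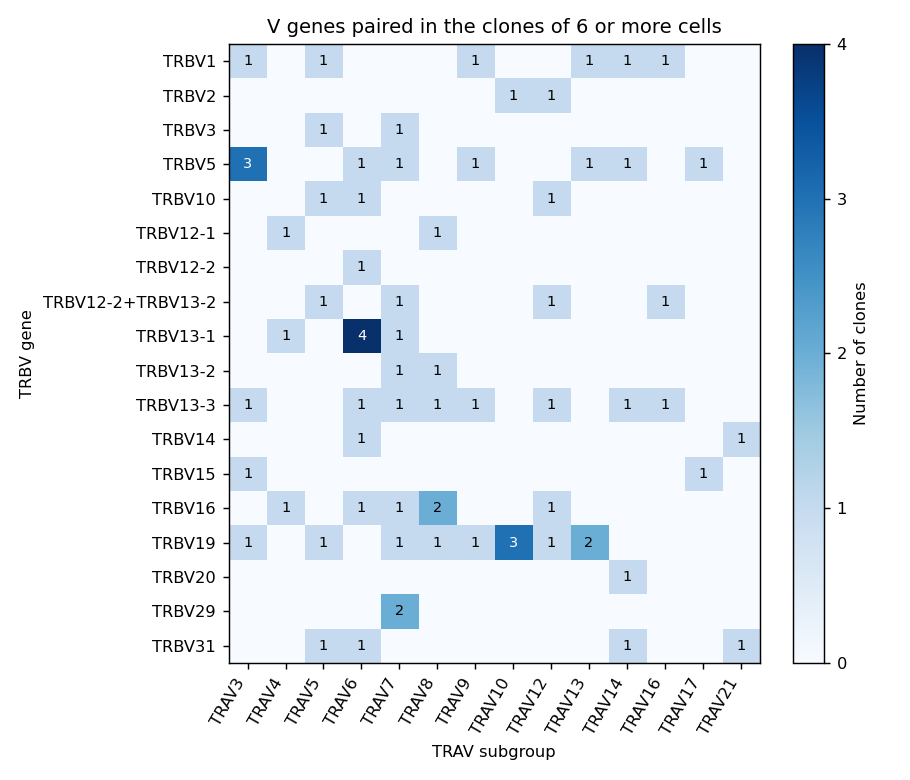
Number of member clones for each TRBV gene (rows) and TRAV subgroup (columns), with the number written in each filled cell. Filled cells are scattered, 57 of 63 hold 1 clone, and TRBV13-1 with TRAV6 holds 4.

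A single TRB CDR3, by amino acids, was repeated within a library among members, in 2 clones of replicate 2 with different V genes and alpha chains. The clone of 20 cells used TRBV14 with TRAV6-2 and TRAJ40, and that of 15 cells used TRBV3 with TRAV5-1 and TRAJ45. No member shared a TRB or a TRA rearrangement, by nucleotides, with another member.
Clone of 20 cells, TRBV14: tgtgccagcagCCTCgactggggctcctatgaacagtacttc
Clone of 15 cells, TRBV3: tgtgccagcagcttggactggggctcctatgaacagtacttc
The clone with TRBV3 had no base outside the V, D and J segments, and the clone with TRBV14 had 4.

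TRAJ genes are numbered downward from the V side of the locus, so a high number marks a J gene close to the V genes and a low number a J gene close to the constant gene, the direction that secondary rearrangement takes. Members spanned TRAJ58 to TRAJ6. The mean TRAJ number was 35.2 ± 14.5 (SD, n = 23 clones) in members and 33.9 ± 14.7 (n = 907) in smaller clones of replicate 1, and 33.7 ± 14.2 (n = 48) and 32.5 ± 14.3 (n = 1288) in replicate 2. In replicate 3 the 2 members averaged 18.0 ± 17.0 against 33.2 ± 13.7 (n = 314). Members were higher in 2 of 3 libraries, by about 1 gene where clones spread over 14 genes, and an exact sign-flip permutation test over the libraries gave p = 1 (two-sided, where 0.25 is the smallest p that 3 libraries allow).

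J genes numbered 40 or higher were in 29 members (39.7%) and 959 smaller clones (38.2%), and those numbered 20 or lower in 16 (21.9%) and 512 (20.4%). At no J gene did the cumulative shares of members and smaller clones, over all libraries, differ by more than 4.49 percentage points. The position of the alpha V gene on chromosome 14 and the TRAJ number correlated weakly across clones, with Pearson's r of 0.102 over 73 members and 0.134 over 2509 smaller clones. These are correlations over clones that share libraries and are given as a description.

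**Figure D4:**
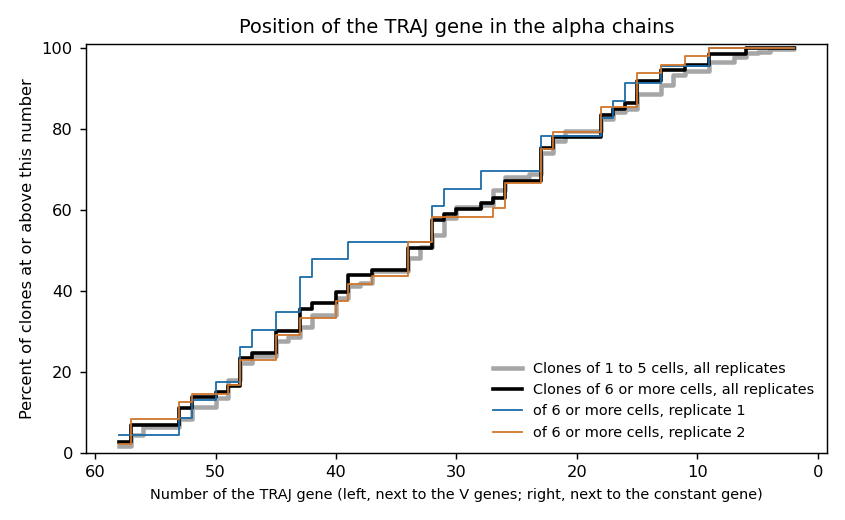
Percent of clones whose TRAJ number is at or above the value on the horizontal axis, which runs from the V side of the locus to the constant gene. The line of all members (black) and that of the smaller clones (grey) stay within 4.49 percentage points of each other, and members of replicate 1 lie above those of replicate 2 around TRAJ40.

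CDR3 loops of members had the lengths usual for these libraries. A TRB CDR3 of 14 residues was the commonest, in 29 of 73 members (39.7%) and 30.3% of smaller clones, and the extremes among members were 10 and 18 residues. The mean was 14.2 ± 1.61 in members and 14 ± 1.34 in smaller clones of replicate 1 (SD), 13.9 ± 1.16 and 13.9 ± 1.39 in replicate 2, and 15.5 ± 0.707 and 13.9 ± 1.56 in replicate 3. Only the 2 members of replicate 3 lay apart from the smaller clones by 1 SD, and the exact permutation test over libraries gave p = 0.5. For TRA the means were 13.9 ± 1.25 and 13.6 ± 1.32, 13.8 ± 1.17 and 13.6 ± 1.40, and 12.5 ± 0.707 and 13.6 ± 1.37 residues in the same order (exact permutation test, p = 1).

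TRB CDR3s carry a net negative charge on average, counting lysine and arginine as positive and aspartate and glutamate as negative. Members were less negative in 3 of 3 libraries, at -0.783 ± 0.850 against -0.824 ± 1.05 in replicate 1, -0.625 ± 0.981 against -0.845 ± 1.01 in replicate 2, and 0.5 ± 0.707 against -0.927 ± 0.965 in replicate 3. The mean difference of 0.563 gave p = 0.25 in the exact permutation test, the smallest possible, and without replicate 3 it was 0.131. With chains of at least 3 UMIs it was 0.0583, with members of 10 or more cells 0.196 and with members of more than 20 cells 0.00121. TRA charge was also higher in members of each library, by 0.0384, 0.0480 and 0.344 (exact permutation test, p = 0.25), all well within 1 SD of clones, and with members of 10 or more cells this difference was -0.122.

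The share of TRBJ2 among members was lower in 3 of 3 libraries, 56.5% against 65.6% in replicate 1, 64.6% against 65.8% in replicate 2 and 50% against 67.8% in replicate 3 (exact permutation test, p = 0.25, the smallest possible). With clones of more than 20 cells as members it was 17.7 percentage points higher instead. Bases that match no germline segment in the TRB junction averaged 3.86 ± 2.57 (SD) in 70 members and 3.52 ± 2.29 in 2415 smaller clones, leaving out TRBV10, whose reference sequence did not match. Members had more in replicates 1 and 2, by 0.690 and 0.263, and fewer in replicate 3, by -0.822 (exact permutation test, p = 1). A junction without any such base was found in 5 of 70 members (7.14%) and 182 of 2415 smaller clones (7.54%).

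Nonproductive rearrangements were not used by the rule and give a second record of descent. Such a passenger, with a V and J pair other than that of the cell's own productive chain, was detected in 45.3% of member cells and 32.8% of cells in smaller clones of replicate 1, and in 37.4% of member cells there without the clone of 249 cells, a value added after the data were seen. The shares were 24.7% and 24.6% in replicate 2, while in replicate 3 it was 1 of 13 member cells and 24.2% of the rest. In 45 member clones at least 2 cells had a passenger. Of their 344 cells with a passenger, 252 (73.3%, exact 95% interval 68.2% to 77.9%) held the commonest passenger of their clone, while 0.186% of passenger-carrying cells in other clones of the library did. The first share cannot be near 0, since the commonest passenger is by definition in at least 1 cell of its clone. Pairs of cells that both had a passenger of a chain shared one in 83.8% of pairs within member clones of replicate 1 and 92.9% in replicate 2. Within clones of 2 to 5 cells the share was 91.5%, 96.2% and 100% in replicates 1, 2 and 3, from 47, 52 and 5 pairs, so the sharing was not particular to the larger clones. Between different member clones it was 0.869% and 0.0168% of pairs. In 21 of these 45 clones every such cell held the same one.

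A T cell may keep 1 passenger on each locus, so the chains were also counted apart, a count added after the data were seen. Of cells with a TRA passenger 90.6% (86.0% to 94.1%) held the commonest TRA passenger of their clone, and of cells with a TRB passenger 89.7% (83.9% to 94.0%) the commonest TRB passenger. In the clone of 249 cells, TRAV3-1 with TRAJ17 was found in 76 of 80 cells with a TRA passenger and TRBV12-1 with TRBJ2-4 in 71 of 81 with a TRB passenger. The clone of 20 cells with TRBV13-3 held TRBV23 with TRBJ2-4 in 11 of 12 such cells and TRAV15D-1-DV6D-1 with TRAJ31 in 9 of 12, where 3 cells held the same J gene with TRAV15N-1, a V gene of the same subgroup.

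Every cell with a passenger held the same one in 17 of 30 clones of replicate 2 and 4 of 15 of replicate 1, a difference that was not tested. In replicate 2 the clone of 49 cells had TRAV13D-3 with TRAJ33 in 12 of 12 cells with a TRA passenger, that of 28 cells had TRAV12D-2 with TRAJ33 in 8 of 8, and that of 27 cells had TRBV10 with TRBJ1-4 in 10 of 10 with a TRB passenger. The 2 clones that share a TRB amino acid sequence had different passengers, TRAV5-4 with TRAJ32 in 5 of 5 cells of the clone with TRBV14 and TRAV8D-1 with TRAJ16 in 7 of 7 of the clone with TRBV3. In the TRBV19 and TRAV10 group, TRBV29 with TRBJ2-4 was in 2 of 2 cells of the clone of 7 in replicate 1 and TRAV21-DV12 with TRAJ45 in 2 of 2 in replicate 2. In its clone of 11 cells the commonest TRA passenger was in 2 of 6, the lowest share of any clone with 2 or more such cells.

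Passenger junctions agreed to the base. In 19 clones at least 2 cells had the commonest passenger with its junction reported, 85 cells in all, and in 19 of 19 the junction was the same in every cell. Those read in 5 or more cells are shown as reported, with bases outside the segments in capitals. The stretches of TRBV23 and TRAV4-3 stop short of the J end seen in member junctions. That of TRBV15 lacks the first bases of member junctions with TRBV15.
Replicate 2, clone of 18 cells, TRAV6-2 and TRAJ35, 17 cells: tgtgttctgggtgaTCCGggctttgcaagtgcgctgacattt
Replicate 1, clone of 20 cells, TRBV23 and TRBJ2-4, 11 cells: tgtgccagCAGTCTGTTTCag
Replicate 1, clone of 7 cells, TRAV14D-1 and TRAJ35, 6 cells: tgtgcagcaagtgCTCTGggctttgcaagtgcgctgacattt
Replicate 1, clone of 20 cells, TRAV4-3 and TRAJ49, 6 cells: tgtgctgctgaCTcg
Replicate 1, clone of 12 cells, TRBV15 and TRBJ2-3, 5 cells: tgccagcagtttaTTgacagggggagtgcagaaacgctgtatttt
Each of the 22 commonest passengers with a reported junction had a junction length divisible by 3. That length does not show that a rearrangement was in frame, since some reported stretches lacked the start or the end that member junctions of the same gene have. The same held for all 132 TRAJ35 contigs with a reported junction, so this length cannot show whether TRAJ35 stood apart. Of 135 TRAJ35 contigs in called cells, 0 were marked productive and 0 full length by the authors' pipeline. Whether these were failed rearrangements was not tested.

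**Figure D5:**
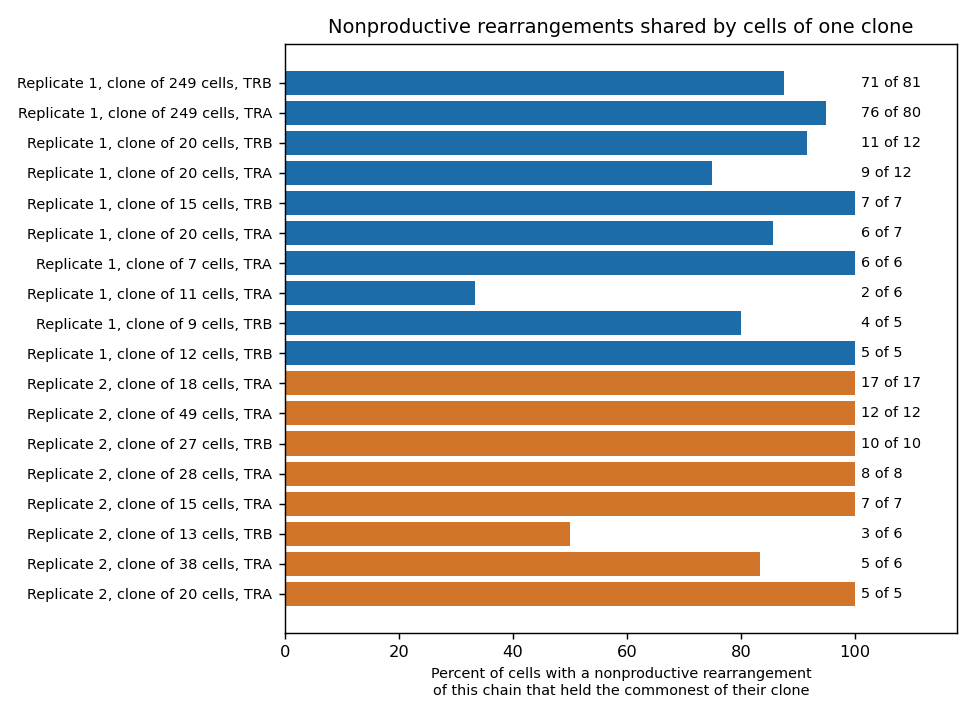
Percent of cells with a nonproductive TRA or TRB rearrangement that held the commonest one of their clone and chain, for the clones and chains with 5 or more such cells, with the counts to the right and 1 colour per replicate. In replicate 2, 6 of 8 bars are at 100%, and the clone of 249 cells is at 95% for TRA and 87.7% for TRB.

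Cells outside the rule also carried member receptors. The TRB rearrangement of a member was in 1370 cells, of which 1060 were the member cells themselves. Of the 1370, 274 had no TRA (20.0%, exact 95% interval 17.9% to 22.2%), 16 had a second TRB, 13 had the clone's TRA with another TRA, and 7 had a different TRA alone. The share without TRA was 22.5%, 17.9% and 19% in replicates 1, 2 and 3, where other TRBs of the library gave 14.1%, 21.3% and 38%, so members were above in replicate 1 and below in replicates 2 and 3. In replicate 1 the clone of 249 cells held 115 of the 138 such cells, and without it the share was 9.27%.

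The share differed widely between clones, from 0% to 64.7% with a median of 10.0%. The clone of 49 cells had 47 of 96 cells without TRA, and a clone of 6 cells with TRBV15 and TRAV3-3, singled out after its values were seen, had 11 of 17. By TRB alone these clones would be 96 and 17 cells, and the clone of 249 would be 365. The opposite case, a member TRA without any TRB, was seen in 83 cells, with 17 for the clone of 249 cells and 10 for the clone of 7 cells of replicate 2 with TRAV3-3 and TRAJ15.

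A second alpha chain beside the clone's own was found in 2 members, both chosen for mention after their values were seen. It was in 13 of the 1370 cells with a member TRB. Of all cells with a productive TRA or TRB, 6.40%, 5.40% and 2.70% in replicates 1, 2 and 3 had 1 TRB and 2 TRAs. The rule needs exactly 1 TRA and so works against clones with 2, and the shares are not on a like footing. In replicate 2 a TRB of TRBV1 and TRBJ2-4 was in 24 cells. Of these, 9 had a TRA of TRAV13-1 and TRAJ11 alone and made the member clone, 9 had this TRA and another of TRAV9D-3 and TRAJ7, 3 had that other TRA alone and 3 had no TRA. In replicate 3 a TRB of TRBV19 and TRBJ1-4 was in 14 cells, 7 with a TRA of TRAV13-1 and TRAJ6 alone, 4 with a second TRA of TRAV7-1 and TRAJ9, and 3 without TRA. The second alpha chains are shown.
Replicate 2, TRAV9D-3 and TRAJ7: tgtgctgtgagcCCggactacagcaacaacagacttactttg
Replicate 3, TRAV7-1 and TRAJ9: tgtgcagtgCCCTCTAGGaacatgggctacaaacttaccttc
Both clones are larger than the rule counts them, since a cell with 2 TRAs was left out.

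Member cells had slightly more TRB transcripts captured. The median TRB UMI count per cell was 9 in members and 7 in smaller clones of replicate 1, 7 and 6 in replicate 2, and 5 and 4 in replicate 3. The difference of 1 or 2 UMIs was in the same direction in 3 of 3 libraries (exact permutation test, p = 0.25, the smallest possible), with quartiles that overlapped in each, 5 to 16 against 4 to 11 in replicate 1. Without the largest clone of each library the member medians were 8, 7 and 3.5, so in replicate 3 the direction turned and rests on its clone of 7 cells. The median TRA UMI count was 6 against 5, 4 against 3 and 5 against 3. A cell with more UMIs is likelier to show both chains and so to be counted, and the part of this in clone size was not tested.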

How the data were processed

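Single-cell TCR libraries of 3 samples, 1 condition, were analysed. Per the labels and the study's methods, the authors ran Cell Ranger with mm10, whose version is not given in the sources used here, and deposited contig tables with the counts of UMIs and reads, V and J genes and CDR3 of each contig. Clonotype and consensus files were not used.

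Productive TRA and TRB contigs with a CDR3 were kept, with no UMI minimum. Each junction was aligned from both ends to its assigned germline segments, and in TRB to D segments, in GRCm38 with the GENCODE M21 annotation. A D match needed 3 bases, and a single mismatch, as an NOD allele may give, was bridged where 5 matching bases followed. The passengers were nonproductive contigs in the authors' file of all contigs.

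Numbers of clones per gene were tested with edgeR 4.0.16 (glmQLFTest, library as a block, R 4.3.3) for genes with 10 or more clones, with Benjamini-Hochberg adjustment over all 125. The self-tests used simulated counts and junctions. How small a difference the edgeR test could detect with 73 members is not given here. Single values were compared by exact two-sided sign-flip permutation over libraries.

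Clones named are those of more than 20 cells, the 5 largest of a library and those shared with another clone or library, and genes named are the 5 with most members of each kind. Others are marked as chosen after their values were seen. Members, lists and tests were chosen with earlier results of these data known. Alternatives were the clone definition, UMI and size limits, gene filter, scaling, DESeq2 1.42.0 and leaving out libraries. UMIs limit precision, with 81110 on all kept contigs.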

Additional observations from a re-analysis of the deposited data

Results flagged for a closer look

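Nonproductive contigs lay outside the productive chains that define the clones. Of cells of a member clone with such a contig, 73.3% (252 of 344 cells) held the commonest one of their clone. Among cells of other clones with such a contig, 0.186% held it. The commonest was picked from these same cells and is in at least 1 of them, so the first share cannot be near 0. The series has no control samples, and clones of 2 to 5 cells shared passengers at least as often, in 91.5%, 96.2% and 100% of pairs of cells within a clone in replicates 1, 2 and 3 against 83.8% and 92.9% within member clones of replicates 1 and 2, a difference that was not tested. In replicate 1 a nonproductive contig of TRAV12D-2 with TRAJ16, the alpha genes of the clone of 249 cells, was the commonest passenger listed for a clone of 7 cells, in 1 of 2 cells, and occurred in 16 of 582 passenger-carrying cells of other clones (2.75%), the highest such share. In that cell its junction was the TRA junction of the clone of 249 cells, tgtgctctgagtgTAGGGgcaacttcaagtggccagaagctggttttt. Its source was not tested. With 3 libraries in 1 group, no sample could be tested as an outlier and no groups could be compared.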

How the results depend on the processing

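No paired analysis was possible because the study has 1 group, so no replicate number recurs between groups. Members and smaller clones were instead compared within each library, and without the library block in edgeR 0 genes passed as well. Among 164 alternative values, 123 kept their direction or stayed near the main value, 19 reversed and 22 moved, and apart from smaller or fewer samples by construction the cause was not tested. Members were 73 clones and 1060 cells, but 41 and 644 with chains of at least 3 UMIs, 26 clones at 10 or more cells, 213 clones at 3 or more, and 8 clones and 468 cells at more than 20. With a library left out there were 25 to 71 clones, 481 to 1047 cells and 0 to 4 alike pairs. Alike pairs were 2 with 3 UMIs, 9 at 3 or more cells and 0 at 10 or more. Cells with the TRB and no TRA (20.0%) were 33.6% with 3 UMIs, 22.8% at 10 or more cells, 17.6% at 3 or more, 28.2% at more than 20, 15.8% without the largest clone and 18.0% to 22.4% with a library left out. Passenger concordance was 90.6% for TRA alone and 63.9% to 87.5% with a library left out.

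The mean differences over libraries give replicate 3, with its 2 members, the same weight as each other library. TRA length (-0.179) was 0.155 with 3 UMIs, 0.0150 against clones of 2 to 5 cells, 0.510 at more than 20 cells and -0.416 to 0.257 with a library left out. TRAJ number (-4.27) was 1.68 with 3 UMIs, 3.69 at 10 or more cells, 0.444 at more than 20 and -7.05 to 1.22 with a library left out. TRB length (0.592) was -0.187 at 10 or more cells, -0.715 at more than 20, and 0.0909 to 0.890 with a library left out. TRB non-germline bases (0.0438) were -0.0706 against clones of 2 to 5 cells and -0.279 to 0.477 with a library left out. TRBJ2 share (-9.36 points) was 0.946 at 3 or more cells, 17.7 at more than 20 and -13.5 to -5.13 with a library left out. TRB charge (0.563) kept its direction, at 0.0583 with 3 UMIs, 0.153 at 3 or more cells, 0.196 at 10 or more, 0.00121 at more than 20 and 0.131 to 0.824 with a library left out. TRA charge (0.143) was -0.0342 with 3 UMIs, -0.122 at 10 or more cells, -0.0271 at 3 or more and -0.150 at more than 20. No gene passed the adjusted threshold under any alternative, and unadjusted p under 0.05 was reached by 0 to 11 genes.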
